A study of Mus musculus with 32 samples.

Results

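Ad-BPR is a mouse model of high-grade serous ovarian carcinoma in which tumours are started in the oviduct. Its 6 tumours were compared with 3 normal oviducts, which are 9 of the 32 RNA sequencing libraries of the series, chosen by their labels. All genes were considered, and 18667 of 55450 passed a filter on low counts and were tested. The tumours were 4 allografts, grown after transfer to another mouse, and 2 primary tumours of the genetically engineered mouse model (GEMM), which arose in the engineered animal itself. Both kinds came from female C57Bl/6 mice homozygous for floxed Brca1 (Brca1 fl/fl) and floxed Trp53 (Trp53 fl/fl) that also carried the transgene K18GT121 Tg/+. Cre recombinase was delivered by an adenovirus injected into the oviducts. It removes the floxed segments and switches on T121, a fragment of the SV40 large T antigen that binds and inactivates proteins of the Rb family. The normal oviducts came from wild type female C57Bl/6 mice, for which no adenovirus is stated. Tumours were taken at the endpoint, months after induction, and the labels give no ages.

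Several features limit these groups as a model. An adenovirus does not restrict Cre to a cell type of the oviduct, while the keratin 18 promoter that drives T121 is active in simple epithelia. The labels do not say which tumour gave rise to which allograft, so the 4 allografts may share a source. The oviduct was sequenced whole, with its muscle, stroma and vessels. The T121 transcript was not measured here.

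The oviduct is lined by secretory cells, which carry the transcription factor Pax8 and release glycoproteins such as Ovgp1, and by ciliated cells, whose beating cilia are built under the control of Foxj1 and Rfx factors. Rb proteins hold E2F transcription factors in check, and E2F factors drive the genes of DNA replication. p53 induces genes of growth arrest and cell death, and Brca1 takes part in repair of DNA breaks by homologous recombination.

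The 9 libraries held 14194870 to 20514825 expected counts. In a principal component analysis the first component carried 67.9% of the variance and set the tumours, at scores of 55.7 to 99.7, apart from the oviducts, at -173 to -170. The second component, with 14.7%, split the tumours among themselves. Allografts 1 and 2 lay at 67 and 62.6 with GEMM tumour 2 at 66.3, allografts 3 and 4 lay at -89.1 and -89, and GEMM tumour 1 stood between them at -12.9. Other libraries stood apart in single gene groups. Oviducts 1 and 3 held transcripts of ovarian cells, since Hsd3b1, a steroid-making enzyme of theca and luteal cells, stood at 664, 8.83 and 369 CPM (counts scaled to equal library size with TMM factors) in oviducts 1 to 3. Allograft 1 held skeletal muscle transcripts, with a summed level of 570.2 CPM over the 10 listed markers, tested or not, against 1.87, 7.78 and 5.53 CPM in allografts 2 to 4, 1.48 to 3.48 CPM in GEMM tumours and 20.5 to 27.9 CPM in oviducts. The tissue labels were borne out by Ovgp1 and Foxj1, which were higher in all 3 oviducts than in any tumour. The epithelial adhesion gene Epcam separated tumours from oviducts in the other direction. It had 769, 798, 1002 and 774 CPM in allografts, 664 and 1027 CPM in GEMM tumours and 178, 166 and 181 CPM in oviducts. Allograft 3 stood highest for some interferon-induced genes, with Zbp1, a sensor of nucleic acids, at 18.5, 22.2, 183 and 15.2 CPM in allografts 1 to 4.

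**Figure D1:**
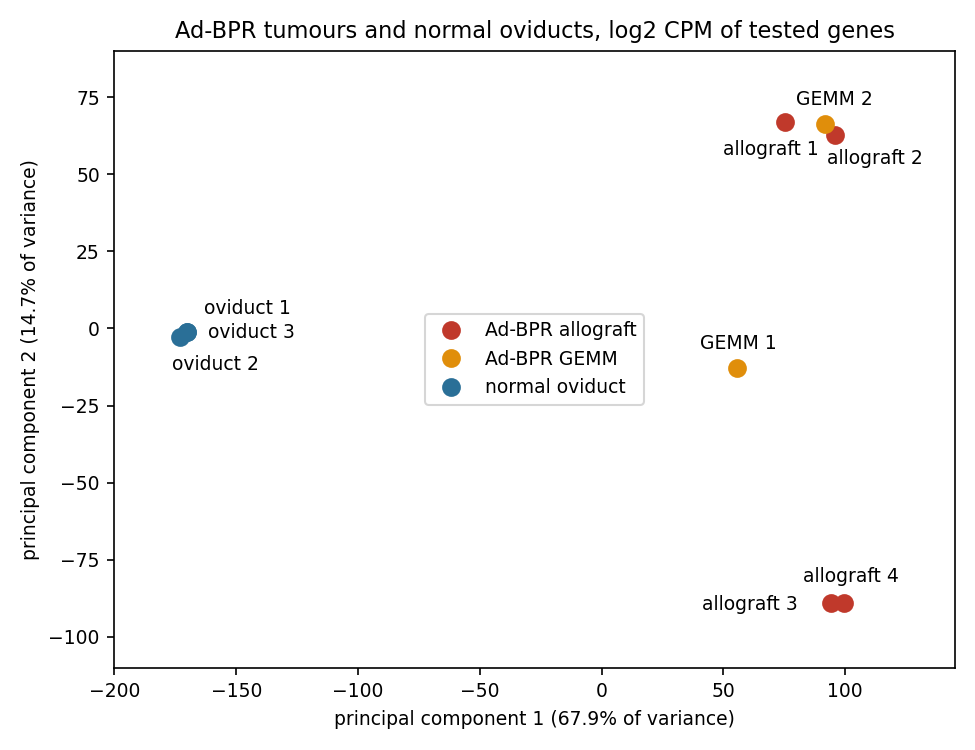
Scores of the 9 libraries on the first and second principal components of log2 CPM, with the share of variance on each axis. Tumours and oviducts are separated along the first component, and the second separates allografts 3 and 4 from allografts 1 and 2 and GEMM tumour 2.

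Of 18667 genes tested with edgeR, 9359 (50.1%) were called, 4401 (23.6%) higher and 4958 (26.6%) lower in tumours than in oviducts at a Benjamini-Hochberg adjusted p below 0.05, taking the tumour level as the mean of the allograft and GEMM groups on the log2 scale. These shares are the background for every count of a gene list below, and the median log2 fold change of all tested genes was -0.03. Among the same genes, 4494 (24.1%) had all 6 tumours above all 3 oviducts and 5263 (28.2%) had all 6 below. Allografts alone against oviducts gave 4349 higher (23.3%) and 4716 lower (25.3%). The GEMM tumours alone gave 3414 higher (18.3%) and 3336 lower (17.9%). Both of these comparisons use the same 3 oviducts. Without oviducts 1 and 3, which leaves a single oviduct, 2947 genes were called in the comparison of all 6 tumours, 1287 higher and 1660 lower. Log2 fold changes below are tumour over oviduct ± their standard error, and values per library are CPM in the order allografts 1 to 4, GEMM tumours 1 and 2, oviducts 1 to 3.

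The engineered genes were examined first. Trp53 (chr11:69580359-69591873, plus strand) had 15.9, 18.2, 19.7 and 20.5 CPM in allografts, 16.4 and 14.2 CPM in GEMM tumours and 90.9, 81.2 and 79.6 CPM in oviducts. All 6 tumours lay below all 3 oviducts, with a log2 fold change of -2.32 ± 0.13 (edgeR adjusted p = 2.91e-05), at -2.18 ± 0.14 in allografts and -2.46 ± 0.18 in GEMM tumours. Brca1 (chr11:101488764-101551955) ran the other way, with 36.6, 27.6, 27.8 and 33.3 CPM in allografts, 20.7 and 45.0 CPM in GEMM tumours and 4.73, 1.93 and 4.82 CPM in oviducts, and rose by 3.07 ± 0.40 on the log2 scale (adjusted p = 0.000496). Counts per gene cannot show which exons were transcribed, and the floxed exons are not given in the labels, so neither value measures the deletion. Rb1 (chr14:73183673-73325822), which is not altered in these mice because T121 acts on the protein, had 28.3, 40.7, 19.3 and 23.4 CPM in allografts, 23.9 and 30.5 CPM in GEMM tumours and 22.4, 23.9 and 21.9 CPM in oviducts, with overlapping groups and an adjusted p of 0.361. Cdkn2a (chr4:89274471-89294653), whose transcripts encode the Cdk4/6 inhibitor p16Ink4a and the Mdm2 inhibitor p19Arf and are not told apart in the counts, had 164, 196, 253 and 155 CPM in allografts, 218 and 183 CPM in GEMM tumours and 0.404, 0.892 and 0.413 CPM in oviducts. Its log2 fold change of 8.40 ± 0.38 (adjusted p = 1.11e-05) was among the 12 largest increases. Krt18, whose promoter is the one used in the transgene, had 704, 906, 1545 and 1338 CPM in allografts, 793 and 818 CPM in GEMM tumours and 267, 279.6 and 364 CPM in oviducts and rose by 1.65 ± 0.28 on the log2 scale.

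**Figure D2:**
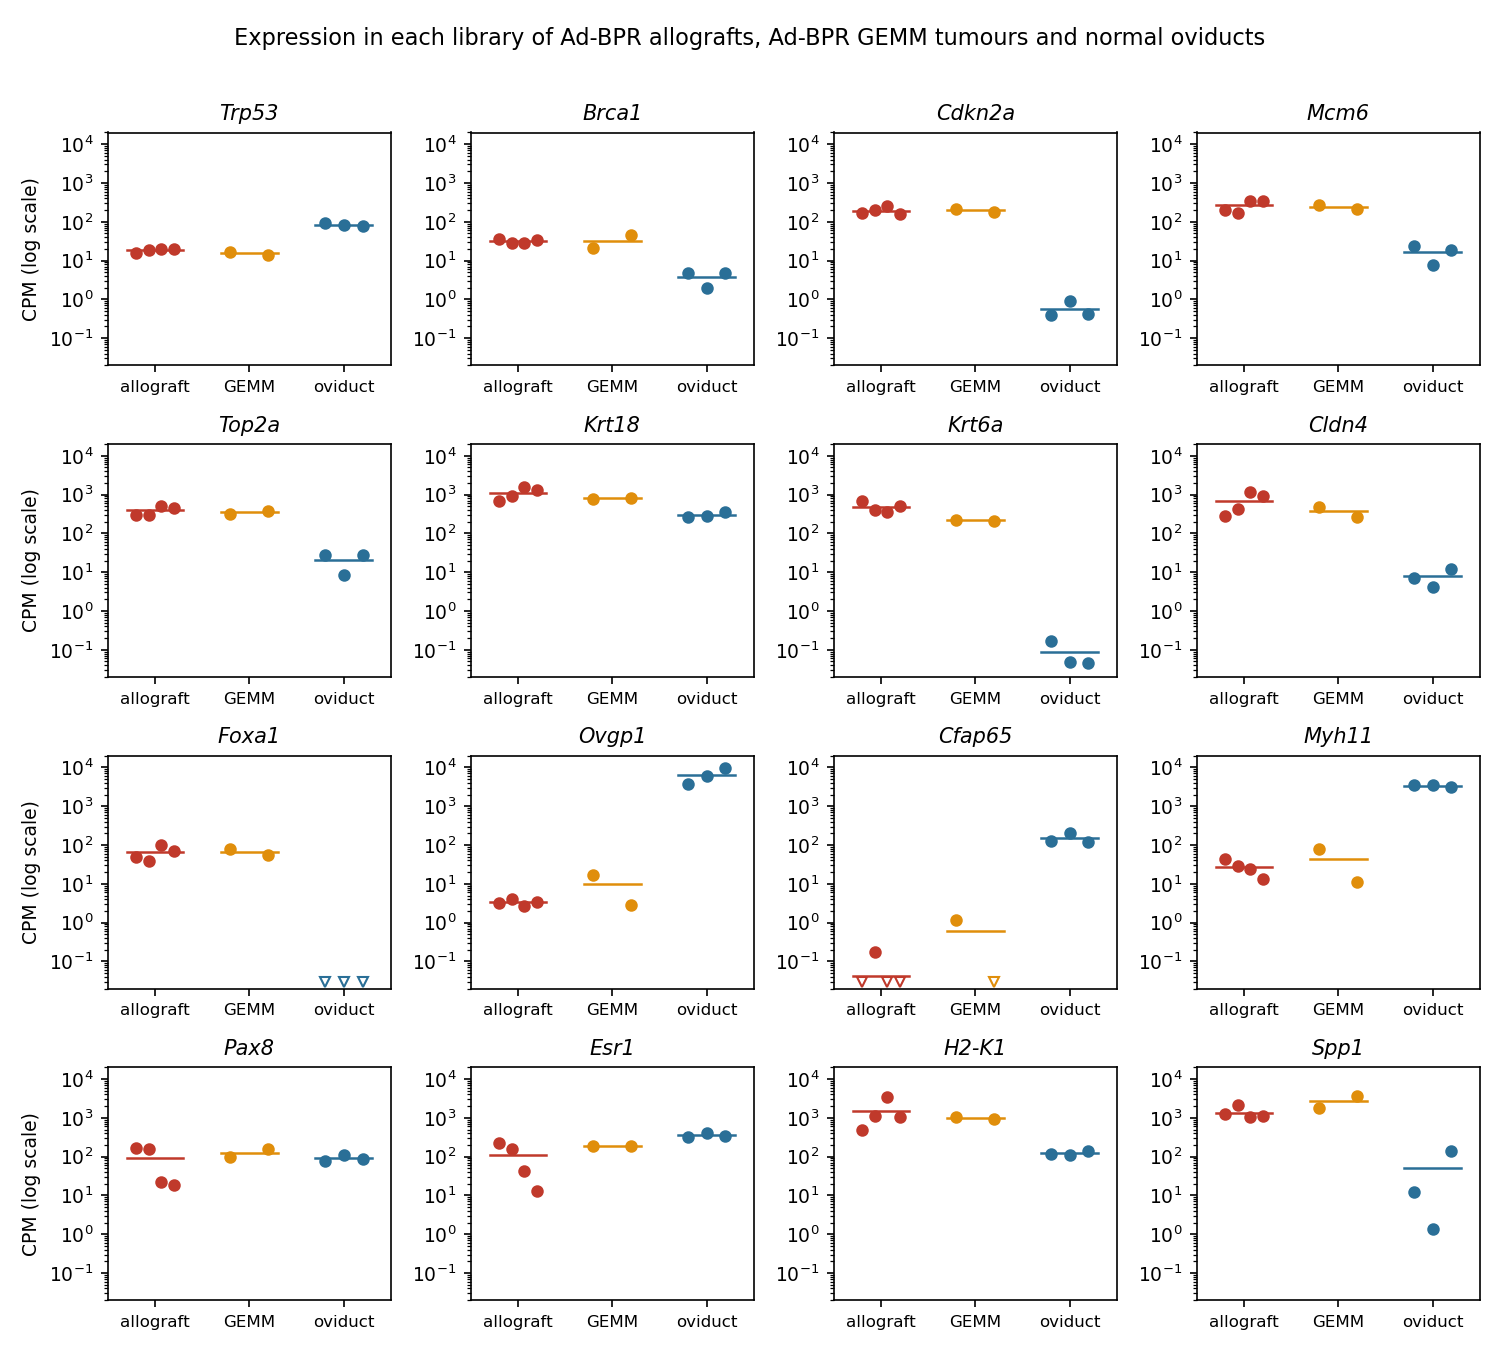
Level of 16 genes in each library on a log axis of CPM, for allografts, GEMM tumours and oviducts; points are libraries, lines are group means and open triangles mark libraries with a count of 0. Trp53 is lower in all 6 tumours than in all 3 oviducts, Cdkn2a, Mcm6 and Krt6a are higher, and Pax8 spans the oviduct values.

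The largest increases among well-expressed genes were led by Col10a1 (chr10:34389981-34397085), a collagen of growth plate cartilage, with 97.3, 918, 22.7 and 566 CPM in allografts, 25.4 and 2729 CPM in GEMM tumours and 0.0577, 0 and 0 CPM in oviducts. Every tumour lay above every oviduct, and the tumours themselves ranged widely. Foxa1 (chr12:57540628-57546916), a pioneer transcription factor of glandular epithelia, had 48.9, 39.2, 102 and 69.8 CPM in allografts and 80.8 and 54.3 CPM in GEMM tumours and a count of 0 in all 3 oviducts. It was at least 429-fold higher in tumours, taking the mean of the 6 tumour libraries against a floor of 3 counts per oviduct library, as for every such bound. Anxa10, a calcium-binding annexin of gastric epithelium, was likewise at 0 in the oviducts and at least 203-fold higher in tumours, with 66.0, 48.5, 0.316 and 18.3 CPM in allografts and 11.6 and 42.1 CPM in GEMM tumours. Foxn1, a transcription factor of thymic epithelium and hair follicle keratinocytes, had 13.1, 43.5, 39.8 and 64.9 CPM in allografts, 20.7 and 23.7 CPM in GEMM tumours and 0.0577, 0.0496 and 0 CPM in oviducts. The transmembrane protein gene Tm4sf4 had 35.3, 41.3, 237 and 219.9 CPM in allografts, 56.7 and 4.44 CPM in GEMM tumours and 0.173, 0.149 and 0 CPM in oviducts and rose by 9.19 ± 1.56 on the log2 scale. Gc, the vitamin D binding protein of plasma, was at 1.08, 8.00, 28.1 and 301 CPM in allografts, 70.9 and 24.8 CPM in GEMM tumours and 0.115, 0 and 0 CPM in oviducts. Both genes were higher in allografts 3 and 4 than in allografts 1 and 2. The largest decreases included Dcpp1 and Dcpp2 (described with the secreted proteins), Ugt1a6b, a glucuronidating enzyme whose exons are shared across its gene cluster (at 0 in all tumours, at least 315-fold lower), and the potassium channel gene Kcna2 (at 0 in all tumours, at least 151-fold lower, and at least 98.0-fold without oviduct 2). Calb1, a calcium-buffering protein, had 0.0674, 0.454, 0 and 0 CPM in allografts, 0.139 and 0.0549 CPM in GEMM tumours and 126, 258 and 154 CPM in oviducts and fell, with a log2 fold change of -10.56 ± 0.74 and an adjusted p of 4.71e-05. The steroidogenic genes Hsd3b1, Cyp17a1 and Lhcgr were also among the 12 largest decreases and belong to the ovarian transcripts of oviducts 1 and 3.

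DNA replication genes were higher throughout. All 41 of 41 tested genes of replication licensing and the fork rose, with a median log2 fold change of 2.34 (2.43 in allografts, 2.17 in GEMM tumours), and 31 rose without oviducts 1 and 3. Mcm6, a subunit of the replicative helicase, had 199, 164, 349 and 352 CPM in allografts, 272 and 213 CPM in GEMM tumours and 24.4, 7.73 and 18.5 CPM in oviducts. Every tumour was above every oviduct (log2 fold change 3.91 ± 0.47, adjusted p = 0.000347), and oviduct 2 was lowest of all. Cdc6, which loads the helicase, rose by 3.90 ± 0.50 on the log2 scale, the fork protein Clspn by 3.73 ± 0.30, the histone chaperone subunit Chaf1b by 3.66 ± 0.38 and the helicase subunit Mcm5 by 3.63 ± 0.31. Of the regulators of Rb and E2F, 23 of 33 rose (13 without oviducts 1 and 3) and 5 fell, with a median log2 fold change of 1.15. The atypical repressors E2f8 (log2 fold change 3.75 ± 0.32) and E2f7 (3.62 ± 0.24), the activator E2f1 (3.07 ± 0.26) and the S phase cyclins Ccne2 (3.19 ± 0.35) and Ccne1 (2.46 ± 0.28) rose. The G1 cyclins Ccnd1 (log2 fold change -1.03 ± 0.25) and Ccnd2 (-1.30 ± 0.37) and the Cdk inhibitor Cdkn1c (-2.90 ± 0.73) fell. Ccnd1 had 56.8, 60.4, 80.3 and 39.5 CPM in allografts, 46.6 and 77.6 CPM in GEMM tumours and 101, 149 and 123 CPM in oviducts, with no overlap between tumours and oviducts. Leaving out oviducts 1 and 3 took the 5 decreases of this list to 0, and leaving out single libraries took them to 2 (without GEMM tumour 1 or without oviduct 2) or 3 (without GEMM tumour 2 or without oviduct 1).

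All 43 of 43 tested genes of mitosis and the spindle rose as well, with a median log2 fold change of 3.33 (3.27 in allografts, 3.27 in GEMM tumours). Top2a, the topoisomerase that separates replicated chromosomes, had 297, 299, 499.9 and 463 CPM in allografts, 318 and 375 CPM in GEMM tumours and 27.1, 8.53 and 27.2 CPM in oviducts and rose by 4.13 ± 0.45 on the log2 scale (adjusted p = 0.000234). Ect2, which acts in the division of the cell body, had 64.1, 84.1, 58.1 and 60.6 CPM in allografts, 69.1 and 84.7 CPM in GEMM tumours and 4.33, 2.03 and 4.73 CPM in oviducts and rose by 4.27 ± 0.32 on the log2 scale (adjusted p = 5.68e-05). Its 6 tumours lay between 58.1 and 84.7 CPM, a narrow range next to the gap to the oviducts. The kinesin Cenpe (log2 fold change 4.20 ± 0.52), the cohesin protector Sgo1 (4.06 ± 0.42) and the contractile ring protein Anln (4.01 ± 0.30) followed. Of the nucleotide synthesis genes, 14 of 23 rose (median log2 fold change 0.74; 9 rose without oviducts 1 and 3), led by thymidine kinase Tk1 (4.34 ± 0.48) and the ribonucleotide reductase subunit Rrm2 (3.83 ± 0.45), and Dhodh, the mitochondrial enzyme of pyrimidine synthesis, fell (-0.47 ± 0.15). The call of Dhodh was lost without GEMM tumour 1 and without any single oviduct.

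The promoters of these genes were read from RefSeq tables (GRCm38.p6), as windows of 300 bases from 250 before to 50 after the transcription start. E2F factors bind the letters TTTCCCGC and TTTGGCGC, which were searched on both strands. They stood in 11 of 31 (35.5%) of the replication promoters, in 2 of 36 (5.56%) of the mitosis promoters and in 1.8% of 27025 genes with a promoter in the table. The CHR element, read by the MuvB complex in mitotic genes, was searched as TTTGAA and TTCGAA on both strands. It stood in 29 of 36 (80.6%) of the mitosis promoters, 7 of 31 (22.6%) of the replication promoters and 21.7% of all genes. The E2F and CHR letters cannot overlap each other, while TTTGGCGC can overlap its own reverse complement. A promoter of each kind is shown with its matches in capitals, the E2F letters in Mcm6 (chr1:128359656-128359955, minus strand) and the CHR letters in Ect2 (chr3:27153829-27154128, minus strand).
Mcm6: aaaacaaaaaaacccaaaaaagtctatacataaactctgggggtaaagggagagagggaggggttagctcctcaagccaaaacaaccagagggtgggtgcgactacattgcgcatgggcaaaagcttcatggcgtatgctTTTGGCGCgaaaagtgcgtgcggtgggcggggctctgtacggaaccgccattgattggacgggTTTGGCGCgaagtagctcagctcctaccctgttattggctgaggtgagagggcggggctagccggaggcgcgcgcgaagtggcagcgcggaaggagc
Ect2: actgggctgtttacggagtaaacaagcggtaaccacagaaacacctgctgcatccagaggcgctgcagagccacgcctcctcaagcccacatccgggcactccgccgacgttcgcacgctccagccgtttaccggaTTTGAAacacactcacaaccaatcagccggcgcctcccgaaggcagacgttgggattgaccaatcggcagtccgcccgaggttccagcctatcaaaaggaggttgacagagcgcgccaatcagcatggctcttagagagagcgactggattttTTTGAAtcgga
A match is a run of letters and does not show that a factor was bound.

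DNA repair genes were mostly higher. Of the genes of homologous recombination and Fanconi repair, 27 of 35 rose and 2 fell (0 fell without oviducts 1 and 3, and 1 without GEMM tumour 1 or 2, allograft 1 or 4, or any single oviduct), with a median log2 fold change of 2.20 (2.26 in allografts, 2.10 in GEMM tumours). Polq, the polymerase of an end-joining pathway, had 21.1, 25.7, 21.3 and 24.5 CPM in allografts, 18.2 and 24.5 CPM in GEMM tumours and 2.31, 1.44 and 1.74 CPM in oviducts. All tumours lay above all oviducts, with a log2 fold change of 3.60 ± 0.24. The nuclease subunit Eme1 (log2 fold change 3.98 ± 0.57), the exonuclease Exo1 (3.55 ± 0.62) and the helicase Rad54b (3.46 ± 0.35) also rose. The Fanconi ubiquitin ligase Fancl (log2 fold change -0.93 ± 0.17) and the annealing protein Rad52 (-0.61 ± 0.22) fell. Of the DNA damage checkpoint genes, 11 of 17 rose (4 without oviducts 1 and 3), among them the kinases Chek1 (log2 fold change 2.50 ± 0.35), Wee1 (2.12 ± 0.22) and Atm (1.89 ± 0.32) and the phosphatase Cdc25c (2.88 ± 0.68).

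Of the p53 targets, 7 of 30 rose and 8 fell, shares near those of all tested genes, and their median log2 fold change was -0.19 (3 higher and 4 lower without oviducts 1 and 3). The stress cytokine Gdf15 (log2 fold change -2.93 ± 0.42), the epoxide hydrolase Ephx1 (-2.18 ± 0.37), the xylulose reductase Dcxr (-2.15 ± 0.36) and the sestrin Sesn1 (-1.68 ± 0.21) fell. Pmaip1, which encodes the BH3 protein Noxa, had 21.0, 35.2, 48.5 and 92.4 CPM in allografts, 30.5 and 35.2 CPM in GEMM tumours and 1.67, 1.78 and 2.07 CPM in oviducts and rose by 4.44 ± 0.52 on the log2 scale. Cdkn1a, the Cdk inhibitor p21 and a classical target of p53, had 144, 135, 293 and 227 CPM in allografts, 152 and 135 CPM in GEMM tumours and 55.4, 55.9 and 51.8 CPM in oviducts and rose by 1.64 ± 0.27 on the log2 scale. Cdkn1a was above the oviducts in all 6 tumours, and Trp53 was below them in all 6. Apaf1, the scaffold of the apoptosome, rose by 2.10 ± 0.21 on the log2 scale. Of the BCL2 family and caspases, 14 of 23 rose and 3 fell (6 and 1 without oviducts 1 and 3). The necroptosis genes Ripk3 (log2 fold change 3.42 ± 0.47) and Mlkl (2.43 ± 0.37), the inflammatory caspase Casp4 (2.77 ± 0.43) and the survival protein Bcl2a1b (4.42 ± 0.55), a member of a family of near-identical copies, rose. Bcl2 (log2 fold change -1.11 ± 0.28), Bik (-1.18 ± 0.23) and Bad (-0.99 ± 0.13) fell. Of the DNA methylation and Polycomb genes, 10 of 19 rose, led by Hells (log2 fold change 3.92 ± 0.40), Uhrf1 (3.44 ± 0.31) and Dnmt1 (2.03 ± 0.22). These genes take part in the upkeep of methylation on new DNA. The demethylase Tet1 fell (log2 fold change -3.12 ± 0.80).

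Ovgp1, the oviductin of secretory cells, had 3.23, 4.03, 2.65 and 3.44 CPM in allografts, 17.3 and 2.91 CPM in GEMM tumours and 3823, 5931 and 9826 CPM in oviducts. It fell, with a log2 fold change of -10.14 ± 0.70 and an adjusted p of 4.71e-05, and GEMM tumour 1 kept the highest level among tumours. Dcpp1 and Dcpp2, overlapping genes for secreted proteins, were at 0 in all 6 tumours and at 91.6, 84.2 and 332 and 85.6, 77.9 and 290.3 CPM in oviducts, at least 926-fold and 828-fold lower (481-fold and 447-fold without oviduct 3). Clusterin (Clu), a secreted chaperone, went the other way with 4669.9, 5378, 8359 and 7351 CPM in allografts, 4592 and 7012 CPM in GEMM tumours and 423, 267 and 581 CPM in oviducts and rose by 3.85 ± 0.37 on the log2 scale. The transmembrane mucins Muc1 (log2 fold change 3.53 ± 0.40) and Muc4 (3.15 ± 1.15, adjusted p = 0.0487) rose, Muc4 with overlapping values. In all, 3 of 15 tested secreted protein genes rose and 3 fell, both below the shares of all tested genes. The count of decreases was 5 without allografts 1 and 2, and that of increases was 5 without allografts 3 and 4. Lactoferrin (Ltf) was called in neither direction, and its values split by library, with 4927, 5599, 222 and 315 CPM in allografts, 1961 and 2201 CPM in GEMM tumours and 1270.1, 1098 and 1905 CPM in oviducts.

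Transcription factors and hormone receptors of the Mullerian duct, the embryonic source of the oviduct, gave 2 increases and 4 decreases among 22 tested genes, below the shares of all tested genes (median log2 fold change -0.40). Pax8 had 166, 160.3, 22.8 and 19.0 CPM in allografts, 97.3 and 157 CPM in GEMM tumours and 78.9, 109 and 87.3 CPM in oviducts and an adjusted p of 0.802. Allografts 1 and 2 and GEMM tumour 2 were above all oviducts while allografts 3 and 4 were below them, and without allografts 1 and 2 the log2 fold change was -0.85 (adjusted p = 0.0107). Its paralogue Pax2, which also marks Mullerian epithelium, had 0, 0.0568, 0.253 and 0 CPM in allografts, 0.139 and 0 CPM in GEMM tumours and 20.1, 25.5 and 22.9 CPM in oviducts and fell by 8.23 ± 0.84 on the log2 scale. The oestrogen receptor Esr1 had 226, 153, 42.0 and 12.9 CPM in allografts, 190.2 and 194 CPM in GEMM tumours and 323, 418 and 339 CPM in oviducts, with all tumours below all oviducts but an adjusted p of 0.149. The progesterone receptor Pgr had 131, 39.8, 12.8 and 0.429 CPM in allografts, 64.5 and 64.9 CPM in GEMM tumours and 170.2, 161 and 55.4 CPM in oviducts (adjusted p = 0.371). Both receptors were lowest in allograft 4 and next lowest in allograft 3. Greb1 (log2 fold change -2.69 ± 0.94), a gene induced by oestrogen, and the homeobox genes Msx1 (-2.63 ± 0.60) and Hoxa9 (-2.34 ± 0.63) fell, while Lhx1 (5.47 ± 0.62), an early factor of the urogenital ducts, rose. Wt1, a marker of serous carcinoma and of mesothelium, had 246, 245, 218 and 122 CPM in allografts, 222 and 270.1 CPM in GEMM tumours and 132, 169.9 and 169 CPM in oviducts and an adjusted p of 0.0958. Muc16, which encodes the antigen CA125, had 2.83, 0.454, 37.8 and 2.74 CPM in allografts, 14.5 and 1.54 CPM in GEMM tumours and 14.1, 22.5 and 17.4 CPM in oviducts and an adjusted p of 0.526. The count of decreases in this list was 12 without allografts 1 and 2, 8 without allografts 3 and 4, 2 without GEMM tumour 2 and 1 without oviducts 1 and 3, and that of increases was 5 without allografts 3 and 4.

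Motile cilia genes were lower. Of 48 tested genes, 44 fell, with a median log2 fold change of -4.29 (-4.58 in allografts, -3.78 in GEMM tumours). Tested apart, 39 fell in allografts and 26 in GEMM tumours. Their summed level, like every such sum below taken over all listed members with or without a test, was 235 to 528 CPM in allografts, 211 to 489 CPM in GEMM tumours and 1852 to 2842 CPM in oviducts. In bulk tissue, fewer ciliated cells and less RNA per cell cannot be told apart, which holds for every cell type named here. Cfap65, an axonemal protein, had 0, 0.170, 0 and 0 CPM in allografts, 1.18 and 0 CPM in GEMM tumours and 125, 201 and 121 CPM in oviducts and fell by 9.77 ± 0.87 on the log2 scale. The apical protein gene Sntn (log2 fold change -9.15 ± 0.76), the cadherin Cdhr3 (-8.55 ± 0.97) and the axonemal gene Cfap46 (-7.89 ± 0.53) followed, and GEMM tumour 1 held the most of Cfap65. Foxj1, the master factor of motile ciliogenesis, had 42.0, 67.1, 174 and 96.3 CPM in allografts, 133 and 79.0 CPM in GEMM tumours and 201, 320.0 and 219.7 CPM in oviducts and fell, with a log2 fold change of -1.30 ± 0.41 and an adjusted p of 0.0285, a smaller difference than that of Cfap65. Rfx3, which acts with it, had 22.5, 11.2, 19.0 and 9.72 CPM in allografts, 12.5 and 15.9 CPM in GEMM tumours and 12.5, 14.9 and 12.3 CPM in oviducts and an adjusted p of 0.657. Without oviducts 1 and 3, 25 of the list were called.

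The X-box bound by Rfx factors was searched by its consensus on both strands and stood in 6 of 41 (14.6%) of the cilia promoters, against 2.26% of all genes. The promoter of Spag16, a protein of the axonemal central pair, is shown as an example (chr1:69826720-69827019, plus strand), with the X-box in capitals. Spag16 had 0.135, 0, 0 and 0 CPM in allografts, 0.975 and 0 CPM in GEMM tumours and 12.6, 19.2 and 8.49 CPM in oviducts and fell by 6.65 ± 1.06 on the log2 scale.
Spag16: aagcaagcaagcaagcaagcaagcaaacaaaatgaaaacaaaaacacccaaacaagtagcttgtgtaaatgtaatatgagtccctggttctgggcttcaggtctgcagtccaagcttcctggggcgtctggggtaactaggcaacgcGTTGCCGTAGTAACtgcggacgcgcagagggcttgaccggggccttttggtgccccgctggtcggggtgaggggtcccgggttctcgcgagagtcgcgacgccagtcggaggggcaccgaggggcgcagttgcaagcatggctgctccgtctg

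Smooth muscle genes of the oviduct wall were lower, 20 of 24 with a median log2 fold change of -3.20. The summed level of the list was 4504 to 7103 CPM in allografts, 3402 to 7564 CPM in GEMM tumours and 19519 to 24956 CPM in oviducts. Myh11, the smooth muscle myosin heavy chain, had 42.8, 29.2, 24.0 and 13.7 CPM in allografts, 76.9 and 10.9 CPM in GEMM tumours and 3502, 3534 and 3109.9 CPM in oviducts and fell, with a log2 fold change of -6.61 ± 0.66 and an adjusted p of 0.000162. The coactivator Myocd (log2 fold change -6.63 ± 0.55), the actin-binding protein Synpo2 (-5.66 ± 0.48) and the actin nucleator Lmod1 (-5.18 ± 0.62) fell, and phospholamban (Pln) was at 0 in all tumours, at least 86.6-fold lower. Srf, the ubiquitous factor that binds the CArG box of muscle genes, had 85.8, 91.7, 93.6 and 73.2 CPM in allografts, 76.5 and 92.2 CPM in GEMM tumours and 93.9, 106 and 92.3 CPM in oviducts and an adjusted p of 0.227. The CArG box stood in 3 of 19 (15.8%) of the smooth muscle promoters and 1.81% of all genes. It is shown in capitals for Myl9, the regulatory myosin light chain, which had 142, 89.4, 42.7 and 49.3 CPM in allografts, 80.0 and 64.5 CPM in GEMM tumours and 1573, 1381 and 1047 CPM in oviducts and fell by 4.13 ± 0.40 on the log2 scale. The window is chr2:156775214-156775513, plus strand.
Myl9: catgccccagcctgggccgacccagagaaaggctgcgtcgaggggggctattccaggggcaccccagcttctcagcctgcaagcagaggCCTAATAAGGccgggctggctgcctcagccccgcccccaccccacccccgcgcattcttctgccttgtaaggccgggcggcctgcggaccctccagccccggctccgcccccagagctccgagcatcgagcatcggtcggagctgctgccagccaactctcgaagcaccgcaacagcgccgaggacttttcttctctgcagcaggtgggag

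Markers of tissues that lie beside the oviduct were lower too. All 12 of 12 tested genes of mesothelium and ovarian surface fell (7 without GEMM tumour 2, 6 without oviducts 1 and 3), 9 of 11 adipocyte genes fell (4 without oviducts 1 and 3), and so did 15 of 16 oocyte genes and 11 of 16 genes of granulosa, theca and luteal cells. Tested apart, mesothelium genes fell in 10 cases in allografts and 6 in GEMM tumours, and adipocyte genes in 9 and 5. Oocyte genes fell in 15 and 11 cases, and genes of the granulosa list in 10 and 8. Adiponectin (Adipoq) stood at 1.01, 0, 7.78 and 0.0537 CPM in allografts, 5.64 and 0.0549 CPM in GEMM tumours and 72.1, 143 and 128 CPM in oviducts, and all 3 oviducts held it. The zona pellucida gene Zp2, by contrast, stood at 27.6, 0.892 and 23.3 CPM in oviducts 1 to 3, low in oviduct 2. Summed over the list, oocyte genes stood at 3.03 to 8.35 CPM in allografts, 5.78 to 9.33 CPM in GEMM tumours and 249.5, 15.3 and 216 CPM in oviducts 1 to 3. Without oviducts 1 and 3, 2 oocyte genes and 2 of the granulosa list were called lower, and without either oviduct alone both lists gave 7. Inhba, an activin subunit, was the granulosa list member that rose (log2 fold change 2.94 ± 0.65).

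Epithelial genes were higher. Of the simple epithelium list 24 of 28 rose (median log2 fold change 1.58, 1.72 in allografts and 1.40 in GEMM tumours). Cldn4, a tight junction claudin, had 285, 417, 1186 and 921 CPM in allografts, 474 and 262 CPM in GEMM tumours and 7.21, 4.16 and 12.0 CPM in oviducts and rose by 6.02 ± 0.70 on the log2 scale (adjusted p = 0.0003). The membrane protease St14 (log2 fold change 3.07 ± 0.26), keratin 7 (Krt7, 2.84 ± 0.26), the factor Grhl1 (2.61 ± 0.37) and the adhesion protein Epcam (2.26 ± 0.19) rose too. Cldn6, a claudin of embryonic epithelia, was called higher with overlapping values, at 4.58, 1.14, 0.126 and 0.107 CPM in allografts, 0.696 and 16.6 CPM in GEMM tumours and 0.115, 0 and 0 CPM in oviducts. The protease Prss8 was the member that fell (log2 fold change -1.13 ± 0.18). A single oviduct (without oviducts 1 and 3) left 13 of the list called higher.

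Keratins of stratified epithelium were higher as well. Of the basal and squamous list 9 of 14 rose, with a median log2 fold change of 4.50 (5.40 in allografts, 3.76 in GEMM tumours). Krt6a, a keratin of wound and hair follicle epithelium, had 676, 403, 352 and 515 CPM in allografts, 221 and 212 CPM in GEMM tumours and 0.173, 0.0496 and 0.0459 CPM in oviducts. It rose by 11.78 ± 0.48 on the log2 scale (adjusted p = 7.34e-06) with no overlap. Its close copy Krt6b can share reads with it. Krt14, a keratin of basal cells, had 67.8, 303, 295 and 751 CPM in allografts, 213 and 102 CPM in GEMM tumours and 0.692, 1.09 and 2.85 CPM in oviducts and rose by 7.23 ± 1.00 on the log2 scale. Krt17 rose by 7.79 ± 0.54 on the log2 scale and involucrin (Ivl), a protein of the cornified envelope, by 7.91 ± 0.80, while Krt16 was at 0 in the oviducts. Krt16 stood at 1.15, 1.82, 4.61 and 16.6 CPM in allografts and 1.39 and 1.76 CPM in GEMM tumours, at least 29.8-fold higher in tumours, and at least 14.0-fold higher without allograft 4, which was highest. Trp63, the master factor of basal cells, had 0.741, 3.29, 20.1 and 2.15 CPM in allografts, 3.62 and 0.274 CPM in GEMM tumours and 1.44, 1.29 and 1.79 CPM in oviducts and an adjusted p of 0.377. The count for this list was 12 without allografts 1 and 2 and 5 without oviducts 1 and 3.

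**Figure D3:**
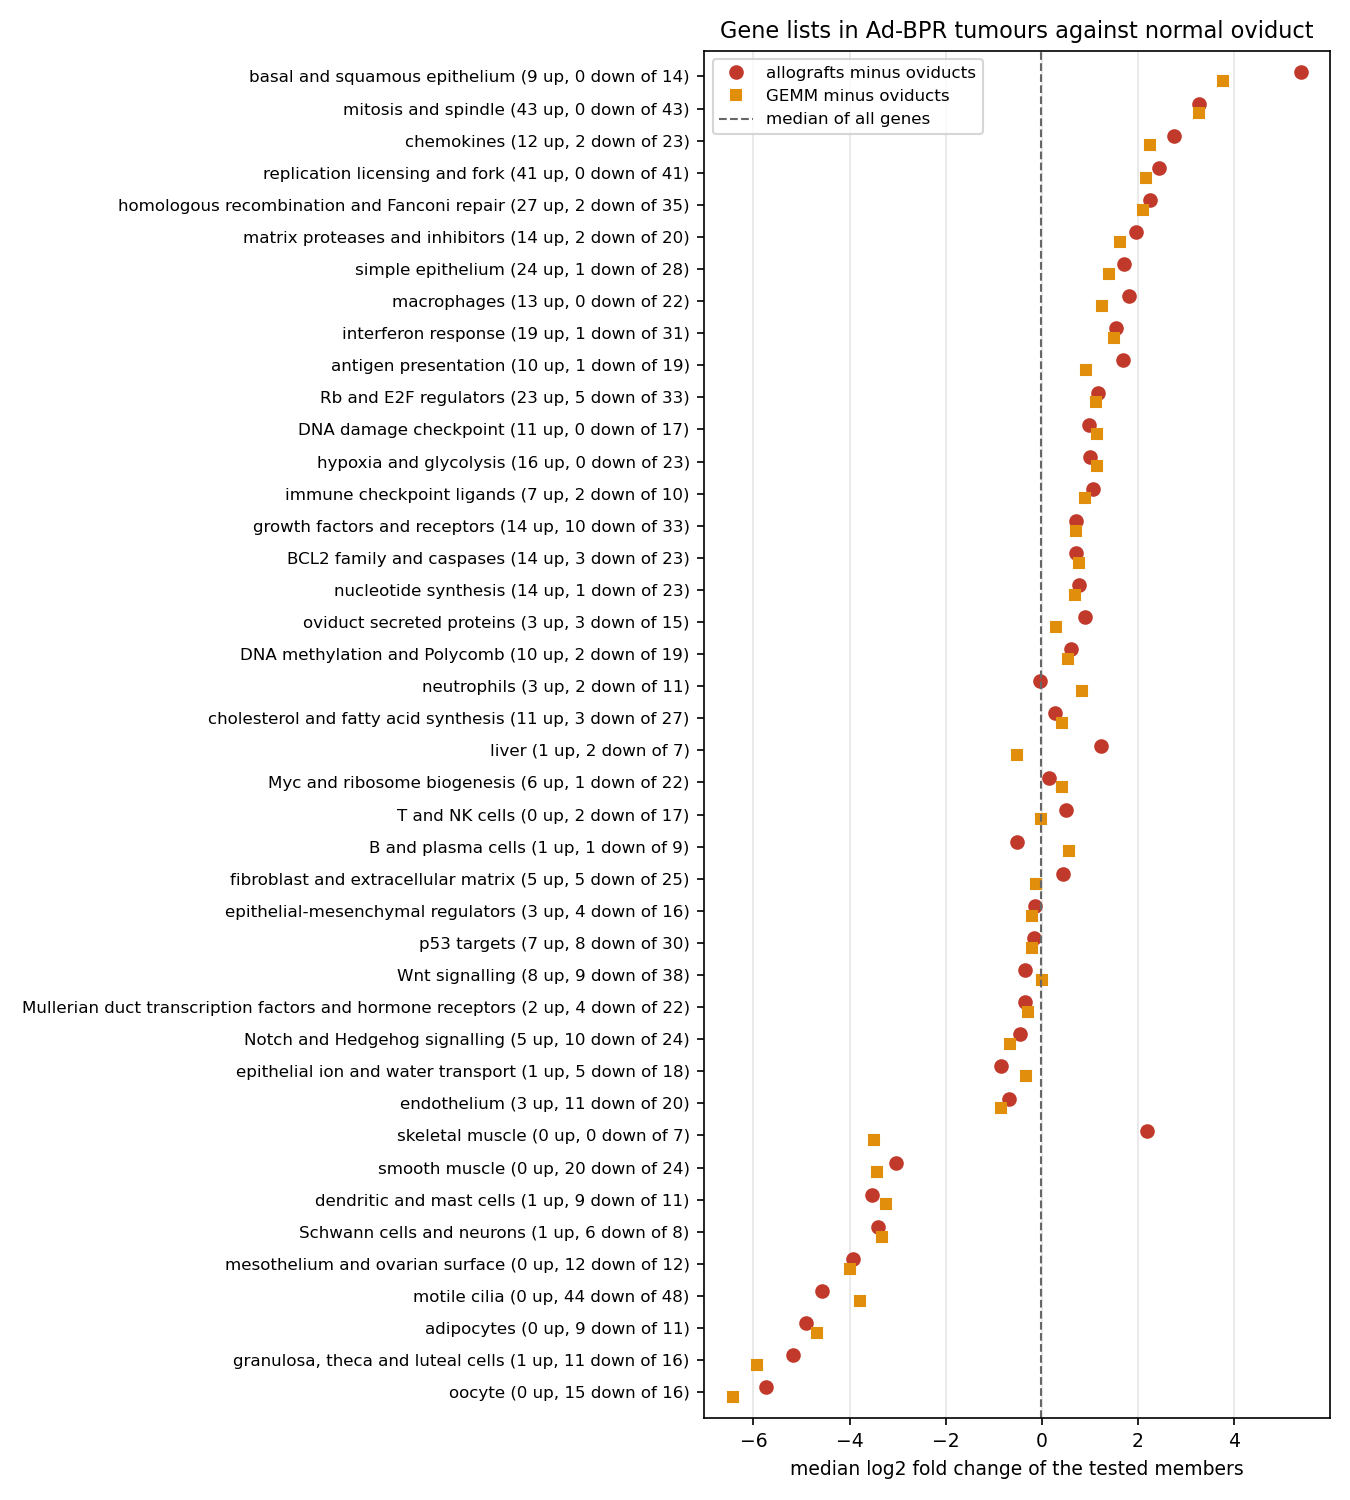
Median log2 fold change over oviducts of each gene list with at least 7 tested genes, for allografts (red circles) and GEMM tumours (orange squares), which share the 3 oviducts; the dashed line is the median of all tested genes and the labels give how many members were called higher and lower in all 6 tumours. Basal and squamous keratins and mitosis lie furthest to the right, and oocyte, granulosa and adipocyte genes furthest to the left.

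Regulators of the epithelial-mesenchymal transition gave 3 increases and 4 decreases among 16, near the shares of all tested genes. The decreases were 8 without allografts 1 and 2, 2 without either GEMM tumour or any single oviduct and 0 without oviducts 1 and 3, and the increases were 5 without allografts 1 and 2. Vimentin (Vim, log2 fold change -0.72 ± 0.24), N-cadherin (Cdh2, -2.49 ± 0.67) and the repressors Zeb1 (-1.46 ± 0.42) and Snai2 (-1.67 ± 0.38) fell, and fibronectin (Fn1, 2.40 ± 0.21), Snai1 (1.25 ± 0.27) and the crosslinking enzyme Lox (0.67 ± 0.24) rose. Fibronectin had 5437, 3908, 5536 and 6191 CPM in allografts, 4897 and 5049 CPM in GEMM tumours and 972, 1064 and 864 CPM in oviducts, without overlap.

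Of the fibroblast and matrix genes, 5 of 25 rose and 5 fell, below the shares of all tested genes, with a median log2 fold change of -0.04. The proteoglycans Ogn (log2 fold change -5.37 ± 0.80) and Dcn (-3.34 ± 0.52) and the matrix protein Dpt (-3.40 ± 0.64) fell. Fibulin 2 (Fbln2, log2 fold change 2.59 ± 0.57), Thy1 (2.23 ± 0.54) and the collagen Col5a2 (1.84 ± 0.20) rose. The count of increases was 3 without GEMM tumour 2, 3 without any single oviduct, 1 without oviducts 1 and 3 and 8 without allografts 3 and 4, and that of decreases was 8 without allografts 1 and 2 and 3 without oviducts 1 and 3. Matrix proteases and their inhibitors gave 14 increases among 20 (median log2 fold change 1.66), 9 without oviduct 1, 8 without oviduct 2 and 3 without oviducts 1 and 3. The collagenase Mmp13 had 179.9, 581, 30.2 and 81.8 CPM in allografts, 96.5 and 324 CPM in GEMM tumours and 0.0577, 0.198 and 0.321 CPM in oviducts and rose by 10.02 ± 1.46 on the log2 scale. The macrophage elastase Mmp12 (log2 fold change 6.04 ± 0.94), the stromelysin Mmp10 (4.92 ± 1.75) and matrilysin (Mmp7, 3.72 ± 0.82) rose, Mmp10 and Mmp7 with overlapping values. The inhibitors Timp4 (log2 fold change -9.48 ± 0.71) and Timp3 (-1.01 ± 0.18) fell.

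Endothelial genes divided. Of 20, 11 fell (6 without oviducts 1 and 3) and 3 rose (5 without allograft 4), and the summed level of the list was 618 to 1038 CPM in allografts, 956 to 1008 CPM in GEMM tumours and 731 to 881 CPM in oviducts. The angiopoietin receptor Tek (log2 fold change -2.56 ± 0.25), the junction protein Cldn5 (-2.32 ± 0.30) and the VEGF receptor Kdr (-1.50 ± 0.25) fell. The tip cell marker Esm1 (log2 fold change 3.73 ± 0.51), the decoy receptor Flt1 (3.10 ± 0.35) and apelin (Apln, 2.75 ± 0.53) rose. Flt1 had 252, 334, 517 and 241 CPM in allografts, 512 and 262 CPM in GEMM tumours and 35.8, 48.0 and 42.6 CPM in oviducts, without overlap. Its ligand Vegfa had 499.6, 595, 2168 and 906 CPM in allografts, 839 and 813 CPM in GEMM tumours and 144, 159 and 187 CPM in oviducts and rose by 2.51 ± 0.50 on the log2 scale.

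Macrophage genes were higher, 13 of 22 with a median log2 fold change of 1.52 (8 without oviducts 1 and 3). Their summed level was 2740.0 to 5950.0 CPM in allografts, 3589 to 5335 CPM in GEMM tumours and 554 to 875 CPM in oviducts. Without Spp1 the sum was 1703 to 3867 CPM in allografts, 1713 to 1773 CPM in GEMM tumours and 551 to 736 CPM in oviducts. Osteopontin (Spp1), made by macrophages and by carcinoma cells, had 1254, 2083, 1037 and 1115 CPM in allografts, 1816 and 3622 CPM in GEMM tumours and 12.6, 1.34 and 138 CPM in oviducts and rose by 5.25 ± 1.35 on the log2 scale. The LPS receptor partner Cd14 (log2 fold change 2.99 ± 0.27), lysozyme (Lyz2, 2.59 ± 0.52), the Fc receptor Fcgr1 (2.12 ± 0.29) and Adgre1 (2.01 ± 0.49), which encodes F4/80, rose. The complement subunit C1qa had 146, 244, 149 and 159 CPM in allografts, 139 and 90.5 CPM in GEMM tumours and 37.7, 44.9 and 47.1 CPM in oviducts, with all tumours above all oviducts. Lymphocyte genes gave few calls. Of 17 T and NK cell genes 2 fell, the kinase Zap70 (log2 fold change -2.65 ± 0.50) and the NK receptor Ncr1 (-3.29 ± 0.84), and 15 were called in neither direction. The count was 1 without allograft 2 or 4, without oviduct 2 or 3 and without oviducts 1 and 3. Their summed level was 12.3 to 55.1 CPM in allografts, 15.6 to 27.0 CPM in GEMM tumours and 20.3 to 27.9 CPM in oviducts. Of 9 B and plasma cell genes 1 rose and 1 fell (0 rose without oviducts 1 and 3, and 2 fell without GEMM tumour 1 or allograft 1). Dendritic and mast cell genes fell in 9 of 11 cases (median log2 fold change -3.64), led by the mast cell proteases Cpa3 (-5.48 ± 0.96), Tpsb2 (-4.85 ± 0.83) and Cma1 (-4.64 ± 1.02), and the integrin Itgax rose (3.74 ± 0.45). Without oviducts 1 and 3, 1 of these decreases was called.

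Interferon response genes rose in 19 of 31 cases (median log2 fold change 1.52), and the count was 10 without oviduct 1, 11 without oviduct 2 and 3 without oviducts 1 and 3. Cxcl10, a chemokine that draws T cells, had 3.64, 10.0, 19.2 and 10.2 CPM in allografts, 13.9 and 3.18 CPM in GEMM tumours and 0.115, 0.0496 and 0.367 CPM in oviducts and rose by 5.67 ± 0.93 on the log2 scale. The 2'-5' oligoadenylate synthetase genes Oasl1 (log2 fold change 4.05 ± 0.50) and Oas3 (3.88 ± 0.88) and the nucleic acid sensor Zbp1 (3.77 ± 0.99) rose, and Bst2 (tetherin) fell (-1.50 ± 0.35). Zbp1 had 18.5, 22.2, 183 and 15.2 CPM in allografts, 33.8 and 24.3 CPM in GEMM tumours and 2.42, 2.68 and 3.99 CPM in oviducts, with allograft 3 several times above every other library and all tumours above all oviducts. The interferon-stimulated response element, searched on both strands as GAAA, any 2 letters and GAAA again, stood in 13 of 23 (56.5%) of the promoters of this list and 3.99% of all genes. It is shown in capitals in the Cxcl10 promoter (chr5:92348840-92349139, minus strand).
Cxcl10: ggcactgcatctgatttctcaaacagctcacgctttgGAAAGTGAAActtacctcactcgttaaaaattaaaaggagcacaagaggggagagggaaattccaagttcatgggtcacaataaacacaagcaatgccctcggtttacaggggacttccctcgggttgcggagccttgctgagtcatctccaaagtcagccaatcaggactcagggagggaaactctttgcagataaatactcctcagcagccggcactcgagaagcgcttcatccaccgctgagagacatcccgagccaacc

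Antigen presentation genes rose in 10 of 19 cases, with a median log2 fold change of 1.39 (1.69 in allografts, 0.91 in GEMM tumours). The class I heavy chain H2-K1, which has near-identical relatives, had 499, 1129.9, 3426 and 1030.4 CPM in allografts, 1048 and 946 CPM in GEMM tumours and 119, 112 and 139 CPM in oviducts and rose by 3.32 ± 0.61 on the log2 scale (adjusted p = 0.00255). The class II chain H2-Eb1 had 27.4, 109, 236 and 109 CPM in allografts, 73.9 and 37.4 CPM in GEMM tumours and 1.10, 1.64 and 1.61 CPM in oviducts and rose by 5.81 ± 0.76 on the log2 scale. Among the tumours, both were highest in allograft 3 and lowest in allograft 1. The class I transactivator Nlrc5 (log2 fold change 3.69 ± 0.92) and the peptide transporter Tap1 (2.34 ± 0.84) rose. Of the list, 2 were called higher without oviducts 1 and 3. Of 10 tested genes for immune checkpoint ligands and adenosine enzymes, 7 rose (2 without oviducts 1 and 3) and 2 fell. The ectonucleotidase Nt5e (CD73) had 758, 1062, 190.0 and 221 CPM in allografts, 134 and 731 CPM in GEMM tumours and 6.75, 7.29 and 16.3 CPM in oviducts and rose by 5.60 ± 0.95 on the log2 scale, Cd276 (B7-H3) rose by 2.90 ± 0.23 and Cd274 (PD-L1) by 1.86 ± 0.53, while Entpd1 (CD39) fell (-2.57 ± 0.30).

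Among chemokines, 12 of 23 rose (median log2 fold change 2.43; 6 rose without oviducts 1 and 3). Of those that attract neutrophils, Cxcl5 rose by 7.57 ± 1.22 on the log2 scale and Cxcl2 by 4.58 ± 0.82, and Cxcl3 was at 0 in the oviducts and at least 24.8-fold higher in tumours, with at most 9.02 CPM. The monocyte chemokine Ccl2 rose by 3.40 ± 0.78 on the log2 scale. Cxcl12, a stromal chemokine, had 23.8, 99.3, 29.6 and 49.8 CPM in allografts, 46.5 and 7.24 CPM in GEMM tumours and 289, 354 and 282 CPM in oviducts and fell by 3.06 ± 0.61 on the log2 scale. Neutrophil genes themselves gave 3 increases and 2 decreases among 11, near the shares of all tested genes. Without oviduct 3 the count of increases was 5, and without allografts 3 and 4 that of decreases was 4. The summed level of the neutrophil list was lower in every tumour than in every oviduct. It was 46.0 to 82.9 CPM in allografts, 28.6 to 60.9 CPM in GEMM tumours and 285 to 473 CPM in oviducts.

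**Figure D4:**
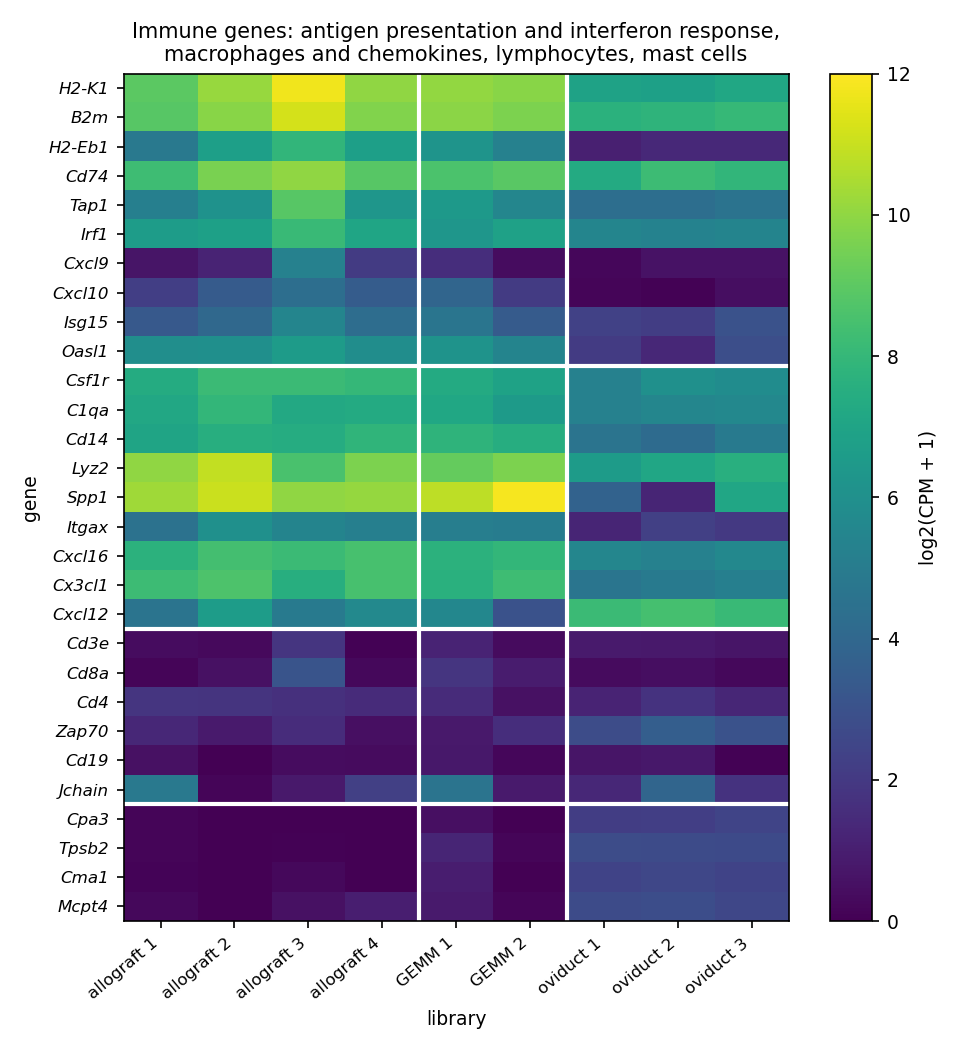
Heat map of log2(CPM + 1) for immune genes in the 9 libraries, with allografts at the left, then GEMM tumours and oviducts; blocks from the top hold antigen presentation and interferon genes, macrophage genes and chemokines, lymphocyte genes and mast cell genes. Allograft 3 is highest for Tap1 and H2-K1, and the mast cell proteases Cpa3, Tpsb2 and Cma1 are higher in oviducts than in tumours.

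Of the hypoxia and glycolysis genes 16 of 23 rose (median log2 fold change 1.00; 7 rose without oviducts 1 and 3), led by the carbonic anhydrase Car9 (4.52 ± 0.57), the lactate exporter Slc16a3 (4.09 ± 0.50), hexokinase 2 (Hk2, 2.91 ± 0.61) and the oxygen sensor Egln3 (2.82 ± 0.83, overlapping). Of the lipid synthesis genes 11 of 27 rose and 3 fell. The members that rose included cholesterol genes, the squalene epoxidase Sqle (log2 fold change 1.83 ± 0.38), Cyp51 (1.75 ± 0.29) and the transcription factor Srebf2 (1.50 ± 0.16). The 3 that fell were fatty acid genes, namely the desaturase Scd1 (log2 fold change -3.17 ± 0.65), acetyl-CoA carboxylase Acaca (-1.45 ± 0.20) and fatty acid synthase Fasn (-1.20 ± 0.31). Srebf2 had 348, 403, 339.5 and 297 CPM in allografts, 363 and 413 CPM in GEMM tumours and 150.1, 129.9 and 108 CPM in oviducts, and Acaca had 62.2, 55.1, 89.1 and 79.2 CPM in allografts, 65.6 and 63.3 CPM in GEMM tumours and 140.3, 224 and 192 CPM in oviducts. Neither gene had any overlap between tumours and oviducts. Genes of Myc and ribosome biogenesis rose in 6 of 22 cases, near the share of all tested genes. The increases were small apart from ornithine decarboxylase (Odc1, log2 fold change 1.68 ± 0.22). The count of increases was 3 without oviduct 1 and 1 without oviduct 2 or without oviduct 3. Myc itself had 44.9, 47.4, 101 and 121 CPM in allografts, 81.3 and 42.4 CPM in GEMM tumours and 47.9, 39.4 and 39.8 CPM in oviducts and an adjusted p of 0.143. Of the ion and water transport genes 5 of 18 fell, near the share of all tested genes (3 without oviduct 1 and 9 without allografts 1 and 2). Among them were the water channel Aqp8 (log2 fold change -5.34 ± 1.40) and the potassium channel subunit Kcne3 (-3.87 ± 0.26). The anion exchanger Slc26a4 rose (log2 fold change 4.34 ± 0.92).

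Of the growth factors and receptors 14 of 33 rose (5 without oviducts 1 and 3) and 10 fell (6 without oviduct 3, 3 without oviducts 1 and 3). The oncofetal RNA-binding protein Igf2bp1 rose by 7.71 ± 0.93 on the log2 scale, the platelet-derived growth factor Pdgfb by 3.60 ± 0.21 and the receptor Met by 2.34 ± 0.43. The stromal factor Fgf10 (log2 fold change -5.16 ± 0.97) and Igfbp5 (-3.31 ± 0.54), which binds insulin-like growth factors, fell. Of the Wnt genes 8 of 38 rose and 9 fell, below the shares of all tested genes (1 and 3 without oviducts 1 and 3). The ligand Wnt7b had 139, 178, 335 and 260.4 CPM in allografts, 179.7 and 122 CPM in GEMM tumours and 22.6, 27.6 and 24.7 CPM in oviducts and rose by 2.89 ± 0.32 on the log2 scale, and Wnt10a rose by 4.01 ± 0.79. The Wnt amplifier Rspo3 (log2 fold change -6.06 ± 1.17) and the ligand Wnt2b (-4.13 ± 0.88) fell. Of the Notch and Hedgehog genes 5 of 24 rose (0 without oviducts 1 and 3, 3 without oviduct 1 or without oviduct 3, 8 without allografts 1 and 2) and 10 fell (6 without oviducts 1 and 3). Gli1, the transcription factor and read-out of Hedgehog signalling, had 3.23, 1.25, 0.379 and 1.77 CPM in allografts, 2.58 and 4.17 CPM in GEMM tumours and 37.0, 44.6 and 48.6 CPM in oviducts and fell by 4.19 ± 0.52 on the log2 scale. The ligand Ihh (log2 fold change -4.40 ± 0.62) fell with it. The Notch modifier Lfng rose (log2 fold change 1.69 ± 0.29), and the Notch target Hey2 fell (-3.39 ± 0.44).

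The allografts were then compared with the GEMM tumours. No gene (0.0%) was called by edgeR, 652 had an unadjusted p below 0.05, and DESeq2 called 47 (12 higher and 35 lower in allografts). With limma on log2(TPM + 1) the count was 4. Against counting noise alone, which separate tumours always exceed, the chi-square per degree of freedom was 41.2 between allografts 1 and 2, 58.9 between allografts 3 and 4, 156 to 162 between a member of each pair, 78.2 between the GEMM tumours and 31.7 to 34 between oviducts. Without allografts 1 and 2, edgeR called 436 genes (89 higher and 347 lower in allografts). The gene with the smallest DESeq2 p, named after its values were seen, was the kinase Hunk, with 1.48, 0.227, 0.316 and 0.268 CPM in allografts, 27.0 and 24.0 CPM in GEMM tumours and 20.4, 28.4 and 20.7 CPM in oviducts. All 4 allografts lay below both GEMM tumours and all oviducts. The DESeq2 log2 fold change was -5.48, and the edgeR adjusted p was 0.25. The fibroblast growth factor receptor Fgfr3 was also called by DESeq2 and was named after its values were seen. It had 24.9, 16.5, 6.57 and 26.0 CPM in allografts, 128 and 89.3 CPM in GEMM tumours and 17.0, 22.7 and 15.1 CPM in oviducts. Its edgeR adjusted p was 0.58.

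The second component split the allografts into pairs. The 25 genes with the largest loading on each side of the second component are a description of that split, with no test. On the side of allografts 1 and 2 and GEMM tumour 2, olfactomedin 4 (Olfm4), a secreted protein of epithelial progenitors, had 156, 81.8, 0.0632 and 0 CPM in allografts, 146 and 393 CPM in GEMM tumours and 0.808, 0.942 and 2.30 CPM in oviducts. The calcium channel gene Trpv6 had 181, 136, 0.316 and 0.215 CPM in allografts, 63.9 and 118 CPM in GEMM tumours and 21.9, 0.595 and 24.0 CPM in oviducts. Both were near 0 in allografts 3 and 4. Padi1, a protein deiminase, had 1769, 695, 32.9 and 4.40 CPM in allografts, 979.9 and 633 CPM in GEMM tumours and 683, 254 and 307 CPM in oviducts, so that allografts 3 and 4 were the libraries below the oviducts. On the other side, Tfap2a, a transcription factor of surface ectoderm, had 0.0674, 0.284, 52.8 and 38.2 CPM in allografts, 34.6 and 0.604 CPM in GEMM tumours and 0, 0.0496 and 0.0918 CPM in oviducts, with GEMM tumour 1 close to allografts 3 and 4. Has2, which makes hyaluronan, had 1.68, 1.70, 120.3 and 28.1 CPM in allografts, 9.12 and 2.52 CPM in GEMM tumours and 1.79, 1.19 and 0.918 CPM in oviducts. Krt5, the partner of Krt14, had 3.03, 13.4, 51.8 and 135 CPM in allografts, 19.6 and 0.768 CPM in GEMM tumours and 0.346, 0.496 and 0.459 CPM in oviducts. Xist, the RNA of the inactive X chromosome, was low in the same pair, with 1496, 945, 111 and 138 CPM in allografts, 777 and 1396 CPM in GEMM tumours and 679, 482 and 493 CPM in oviducts.

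**Figure D5:**
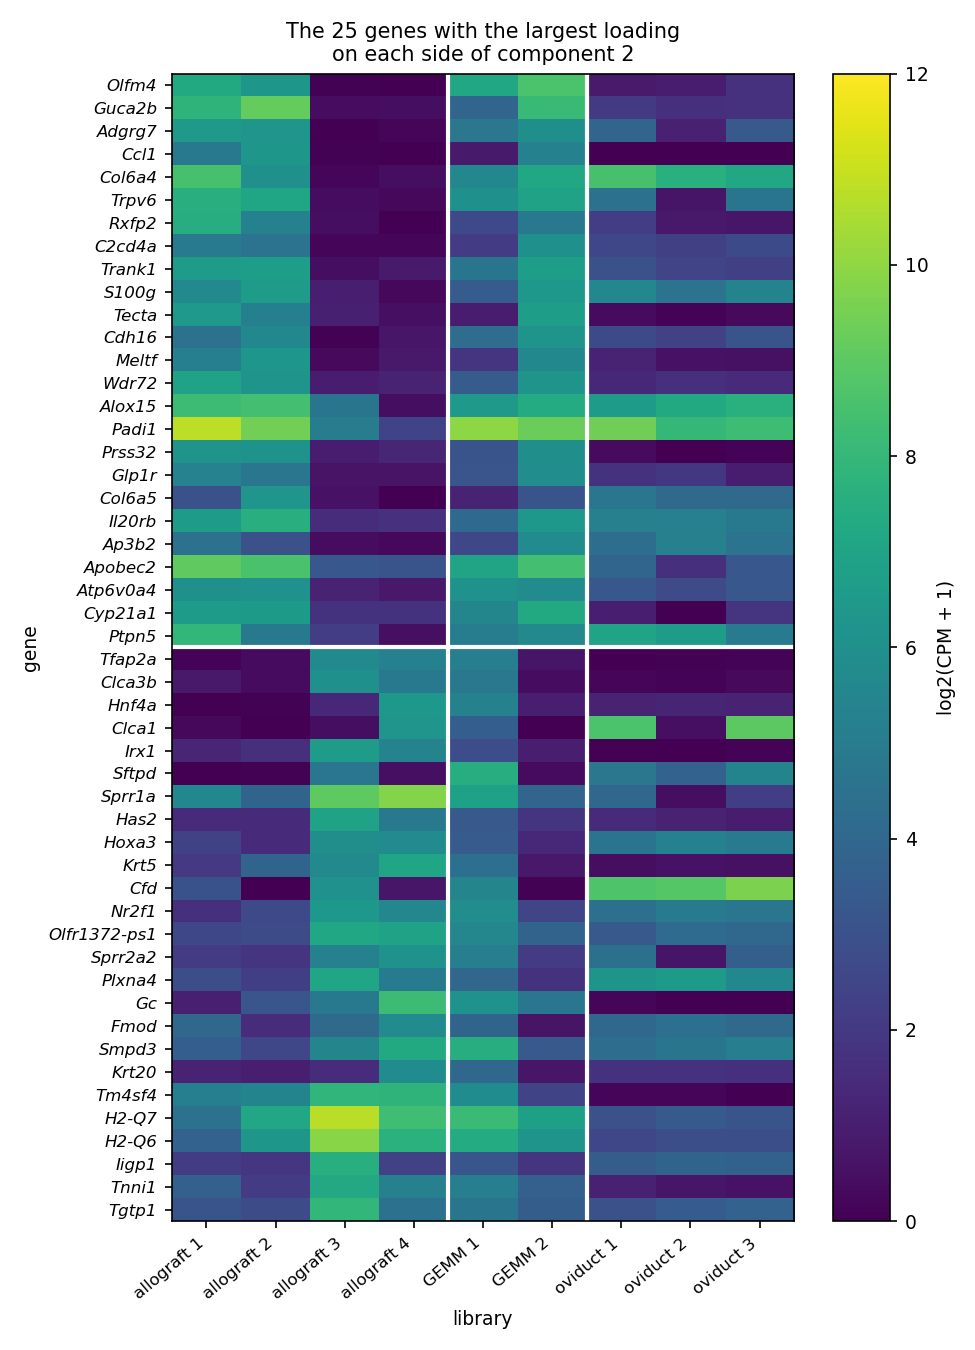
Heat map of log2(CPM + 1) in the 9 libraries for the 25 genes with the largest loading on each side of the second component. All 25 genes of the upper block are higher in allografts 1 and 2 and GEMM tumour 2 than in allografts 3 and 4. For 19 of them these higher libraries also lie above all oviducts. In the lower block 24 of the 25 are higher in allografts 3 and 4, and for 18 both allografts also lie above all oviducts.

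Ad-BPR tumours were last set beside the other tumours started in the oviduct, those in which tamoxifen-activated Cre was directed to secretory cells by Pax8 (Pax8-BPR, 2 allografts and 4 GEMM tumours) or by Ovgp1 (Ovgp1-BPR, 3 allografts and 3 GEMM tumours). Each model was taken as the mean of its allograft and GEMM groups on the log2 scale, since the mix of kinds differs. These comparisons used a fit of the 18 tumours with 19012 genes, whose scaling factors shift CPM values slightly from those above. Ad-BPR against Pax8-BPR gave no calls with edgeR (0.0%), 2290 genes at an unadjusted p below 0.05 and 443 calls with DESeq2. Ad-BPR against Ovgp1-BPR gave 6476 calls (34.1%), with 3245 genes higher (17.1%) and 3231 lower (17.0%), a total that was 3874 without GEMM tumour 2 of Ad-BPR. Foxa1 ranged from 39.2 to 102 CPM in Ad-BPR (median 62.4), from 28.3 to 80.4 CPM in Pax8-BPR (median 36.7) and from 0 to 4.70 CPM in Ovgp1-BPR (median 0.0253), with a log2 fold change of 6.11 ± 1.08 against Ovgp1-BPR. For Trp53 in Ovgp1-BPR, the sample labels give a knocked-in point mutation, while the series description names both a point mutation and floxed alleles. Trp53 ranged from 14.2 to 20.6 CPM in Ad-BPR and from 98.7 to 151 CPM in Ovgp1-BPR (log2 fold change -2.87 ± 0.21). Wt1 ranged from 123 to 272 CPM in Ad-BPR and from 525 to 718 CPM in Ovgp1-BPR (log2 fold change -1.47 ± 0.49). Of the lists, basal and squamous genes were higher in Ad-BPR than in Ovgp1-BPR in 12 of 15 cases (median log2 fold change 5.22), simple epithelium in 15 of 28 (2.68) and fibroblast and matrix genes in 14 of 25 (2.34). Mesothelium genes were lower in 11 of 12 cases (-5.59) and mitosis genes in 13 of 43 (-0.40). Krt6a ranged from 214 to 682 CPM in Ad-BPR and from 0 to 85.2 CPM in Ovgp1-BPR (log2 fold change 6.88 ± 1.69). Among the largest differences, the anion exchanger Slc26a4 ranged from 2.38 to 42.9 CPM in Ad-BPR and from 0 to 0.0453 CPM in Ovgp1-BPR. Tm4sf4 was also higher in Ad-BPR (log2 fold change 10.08 ± 1.71). The secreted protein Nell1 was lower, from 0 to 0.0692 CPM in Ad-BPR and from 35.3 to 375 CPM in Ovgp1-BPR.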

How the data were processed

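Bulk RNA was sequenced, and the 9 libraries of Ad-BPR tumours and normal oviducts were taken from gene tables of 55450 genes. Expected counts from RSEM, which shares out reads that match several genes, were deposited by the authors. TPM values, scaled for gene length and depth, were deposited by the authors as well. Tools named per the submitters' processing notes are bcl2fastq, cutadapt 1.18, STAR 2.7.0f, Picard and RSEM 1.3.1, with the builds mm10 and GRCm38. Strandedness was not given in the sources used here, so overlapping and antisense genes are uncertain. Gene coordinates come from GENCODE M21 (GRCm38), which matched all 55450 identifiers.

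Groups and replicate names came from the labels, and replicate numbers follow accession order. Titles carry different animal numbers, but nothing more says that the samples are independent, so p-values measure the spread between these samples. The lowest chi-square per degree of freedom among 10 pairs within groups was 31.7, so no library was a copy of another. A floor of 3 counts stood for libraries at 0, and it covers counting error only. Where an arm held 1 to 3 counts, only levels are printed.

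Expected counts were rounded, filtered with filterByExpr (minimum count 10, total 15; 99.92% of counts kept), scaled by TMM (factors 0.938 to 1.07) and tested by the quasi-likelihood test of edgeR 4.0.16 (R 4.3.3). The contrast was the mean of the GEMM and allograft coefficients minus oviduct. The 18 oviduct-started tumours were fitted apart. Genes were called at a Benjamini-Hochberg adjusted p below 0.05. Each standard error was the size of the log2 fold change over the square root of F. Before use, the fit was tested on simulated data. Changes of 1 on the log2 scale were recovered in 14% of cases for tumours against oviducts and 4% for allografts against GEMM tumours. Against Pax8-BPR and Ovgp1-BPR the shares were 14% and 30%. Changes of 2 were recovered in 64%, 52%, 60% and 68% of cases, in the same order. Many smaller differences would be missed, so the absence of calls does not show that groups were alike.

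Genes were named by rule. One part took the largest changes per direction among called genes that reached 10 CPM in the higher arm and did not overlap. It took up to 12 for tumours against oviducts, 8 for allografts against GEMM tumours and 6 against the other models. For tumours against oviducts, genes also had to be called alike in GEMM tumours and allografts. Predicted genes were counted but not named. Another took up to 5 called members of each of 44 lists in its main direction and 3 against it. Brca1, Trp53, Rb1, Cdkn2a, Krt18, Pax8, Ovgp1, Wt1, Esr1, Pgr, Epcam, Muc16, Myc, Ccne1 and Xist were always taken, and some of the genes so chosen are not reported here. Ltf, Foxj1, Rfx3, Srf, Trp63, C1qa, Hunk, Fgfr3 and the genes of the second component were chosen after their values were seen. Members and lists were chosen with earlier results of these data known. Alternatives were DESeq2 1.42.0, RLE factors, no count filter, limma 3.58.1 on log2(TPM + 1) or log2(TPM + 0.1), voom weights, a fit of all 32 libraries, the 6 tumours as 1 group, and leaving out libraries.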

Additional observations from a re-analysis of the deposited data

Results flagged for a closer look

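Among the 4 allografts, 11 of the 195 named genes that reached 10 CPM in a tumour had a sample far from the others, with a gap that took up most of the range of the group on the log2 scale. Chance alone sets apart about 1 in 20 independent groups. The named genes were measured in the same 4 allografts and are not independent, so 11 cannot be compared with that rate. Allograft 3 was the sample for 7 of the 11 genes. It was high for Zbp1 (183 CPM, against 18.5, 22.2 and 15.2 CPM in allografts 1, 2 and 4), Oasl1 (96.5 CPM, against 59.2, 62.3 and 57.8 CPM), Cd276 (305 CPM, against 186, 179.5 and 193 CPM), Epcam (1002 CPM, against 769, 798 and 774 CPM) and Ccne1 (16.8 CPM, against 10.1, 9.93 and 10.8 CPM). It was low for Mmp7 (4.74 CPM, against 48.6, 38.8 and 39.1 CPM) and Kif12 (0.948 CPM, against 22.0, 31.9 and 21.3 CPM). Allograft 4 was low for Dpt (1.07 CPM, against 18.5, 15.5 and 16.1 CPM in allografts 1 to 3), Tubb3 (13.7 CPM, against 26.6, 28.6 and 29.5 CPM) and Wt1 (122 CPM, against 246, 245 and 218 CPM). Allograft 1 was high for Hoxa9, with 18.4 CPM against 2.89, 2.78 and 3.60 CPM in allografts 2 to 4.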

How the results depend on the processing

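Tumours against oviducts gave 6886 to 9393 calls when a library was left out, and allografts against oviducts 6646 to 8785. GEMM tumours against oviducts gave 3444 to 4609 (3444 without GEMM tumour 2, 4480 without oviduct 3). Without oviducts 1 and 3 these comparisons gave 2947, 2738 and 1359 calls. Allografts against GEMM tumours gave 47 calls with DESeq2, 4 and 1 with limma on log2(TPM + 1) and log2(TPM + 0.1), 18 on unfiltered TPM, and 0 to 1 when a library was left out (1 without allograft 1). Without allografts 1 and 2, an alternative chosen after seeing the data, it gave 436. Ad-BPR against Pax8-BPR gave 443 with DESeq2, 137 in the fit of all 32 libraries and 0 to 3 when a library was left out (3 without Pax8-BPR GEMM tumour 1). Ad-BPR against Ovgp1-BPR gave 3874 to 7297 (3874 without Ad-BPR GEMM tumour 2). Of the named genes, 263 to 277 of 278 kept their direction and call under RLE factors, no count filter, DESeq2, limma and voom weights, and 170 of 274 did without oviducts 1 and 3. In the fit of all 32 libraries 250 of 276 did. Leaving out 1 library gave from 247 of 275 (without oviduct 2) to 275 of 278 (without allograft 3). Pax8 (log2 fold change 0.23) turned to -0.0557, -0.0664 and -0.0557 with limma on log2(TPM + 1), log2(TPM + 0.1) and unfiltered TPM, -0.0266 without oviducts 1 and 3 and -0.85 without allografts 1 and 2, and ranged from -0.0012 (without allograft 1) to 0.40 (without GEMM tumour 1) when a library was left out. Xist (0.63) turned to -0.11, -0.12 and -0.11 with limma and -0.60 without allografts 1 and 2. The causes were not tested. No paired analysis was possible because replicate numbers follow accession order and pair no samples.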

Other observations

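Lists of other tissues were examined last. Of 8 tested genes of Schwann cells and neurons, 6 were lower in tumours (2 without oviducts 1 and 3) and 1, the tubulin Tubb3, was higher. Of 5 tested erythroid genes 2 were lower, of 7 liver genes 1 was higher and 2 were lower, and none of 7 skeletal muscle genes was called in either direction. Without allograft 1, which held muscle transcripts, 4 of the skeletal muscle genes were lower. The erythroid count was 1 without either GEMM tumour and without oviduct 2 or 3. The liver increase was lost without GEMM tumour 2, without allograft 2 or 4 and without oviduct 2 or 3. The count of liver decreases was 1 without either GEMM tumour and without oviduct 1 or 3. The pancreatic acinar list had 1 tested gene, Cpa1, which was lower with overlapping values. Its call was lost without GEMM tumour 2, without allograft 1, 2 or 4 and without oviduct 1 or 3.

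Among the 47 genes that DESeq2 called between allografts and GEMM tumours, 3 were at 0 in both GEMM tumours. Gm47283 had 59.3, 27.8, 16.6 and 13.5 CPM in allografts and 214, 155 and 276 CPM in oviducts. Gm21887 had 10.6, 8.29, 4.87 and 4.19 CPM in allografts and 0.115, 0 and 0.184 CPM in oviducts, and 2210418O10Rik had 9.36, 5.05, 0.569 and 0.752 CPM in allografts and 0.0577, 0.0496 and 0 CPM in oviducts. The edgeR adjusted p was 0.25, 0.39 and 0.96 for Gm47283, Gm21887 and 2210418O10Rik. The homeobox gene Pitx1 had 18.3, 31.7, 80.2 and 42.2 CPM in allografts, 5.85 and 8.12 CPM in GEMM tumours and 0.173, 0 and 0.138 CPM in oviducts. The protease Tmprss11e had 90.3, 74.5, 30.8 and 38.0 CPM in allografts, 4.04 and 5.71 CPM in GEMM tumours and 0.519, 0 and 0.459 CPM in oviducts. Both had all 4 allografts above both GEMM tumours, but the edgeR adjusted p was 0.96 for Pitx1 and 0.89 for Tmprss11e. These genes were chosen after their values were seen.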
